A study of Mus musculus with 12 samples.

Results

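The 32 genes described here are the collagens, matrix proteins, matrix enzymes and cell markers by which hepatic stellate cells and liver fibrosis are followed at the RNA level. They were chosen by symbol, and all 32 matched an identifier among the 51912 of the count table and passed the filter on low counts that left 18098 genes for testing. They were measured in liver RNA of 12 mice in 4 groups of 3, namely wild-type and Mlkl-/- mice kept on normal chow (ND) or on a fat-rich diet (HFD, 36% fat, lipid giving 59% of the energy). Mice were 8 to 9 weeks old when the diets began, and all 12 animals are labelled as 25 weeks on diet. Mlkl encodes the pore-forming executioner of necroptosis. The labels do not say how the Mlkl allele was made or whether its loss is limited to one cell type, and the animals sequenced had been picked by organ weight.

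Hepatic stellate cells lie between the sinusoidal endothelium and the hepatocytes. In the healthy liver they are quiescent, store vitamin A and make reelin, hepatocyte growth factor and the collectins Colec10 and Colec11. On injury, transforming growth factor beta and platelet-derived growth factor drive them to proliferate, contract and secrete fibrillar collagen, while matrix proteases and their inhibitors set how much of that matrix is kept. In whole liver RNA, fewer cells of a type and less RNA per cell cannot be told apart.

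Library totals ran from 19435391 to 32120426 counts. Mlkl stood at 3.01 to 7.64 CPM (reads of the gene scaled to a library of fixed size) in the 6 wild-type livers and at 0.433 to 1.40 CPM in the 6 Mlkl-/- livers, with no overlap between genotypes. Sample titles carry a number beside the diet whose meaning is not given. It is 23 or 25 in replicate 1 of every group and in replicate 2 of the wild-type ND and Mlkl-/- HFD groups, and 27 or 29 in the other libraries. At 8 loci, most of them annotated small RNAs, 6 libraries held 3484 to 9239 CPM in sum without TMM scaling and 6 held 378 to 656 CPM. The higher level was found in every Mlkl-/- HFD library, in replicates 2 and 3 of the wild-type HFD group and in replicate 1 of the Mlkl-/- ND group, so the Mlkl-/- HFD group has no library at the lower level.

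In wild-type livers the 32 genes lay mostly higher on HFD, and in Mlkl-/- livers they did not. The log2 fold change for HFD against ND was above 0 for 28 of the 32 genes in wild-type mice, with a median of 0.63 beside -0.01 over all genes tested, of which 49% were above 0. In Mlkl-/- mice it was above 0 for 10 of 32 genes, beside 48.1% of all genes, with a median of -0.23 beside -0.02 over all genes. Adding the 8-locus level to the model brought that median to 0.03. Most of the wild-type difference lay in 2 of the 3 HFD livers. Of the 32 genes, 20 had their highest CPM of all 12 livers in wild-type HFD replicate 1 and 6 in replicate 2, where 6.46% and 11.7% of all tested genes had theirs. Wild-type HFD replicate 3 had the highest value of 1 gene. At the other end, 15 genes had their lowest CPM in Mlkl-/- HFD replicate 1, where 10.1% of all tested genes had theirs.

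**Figure D1:**
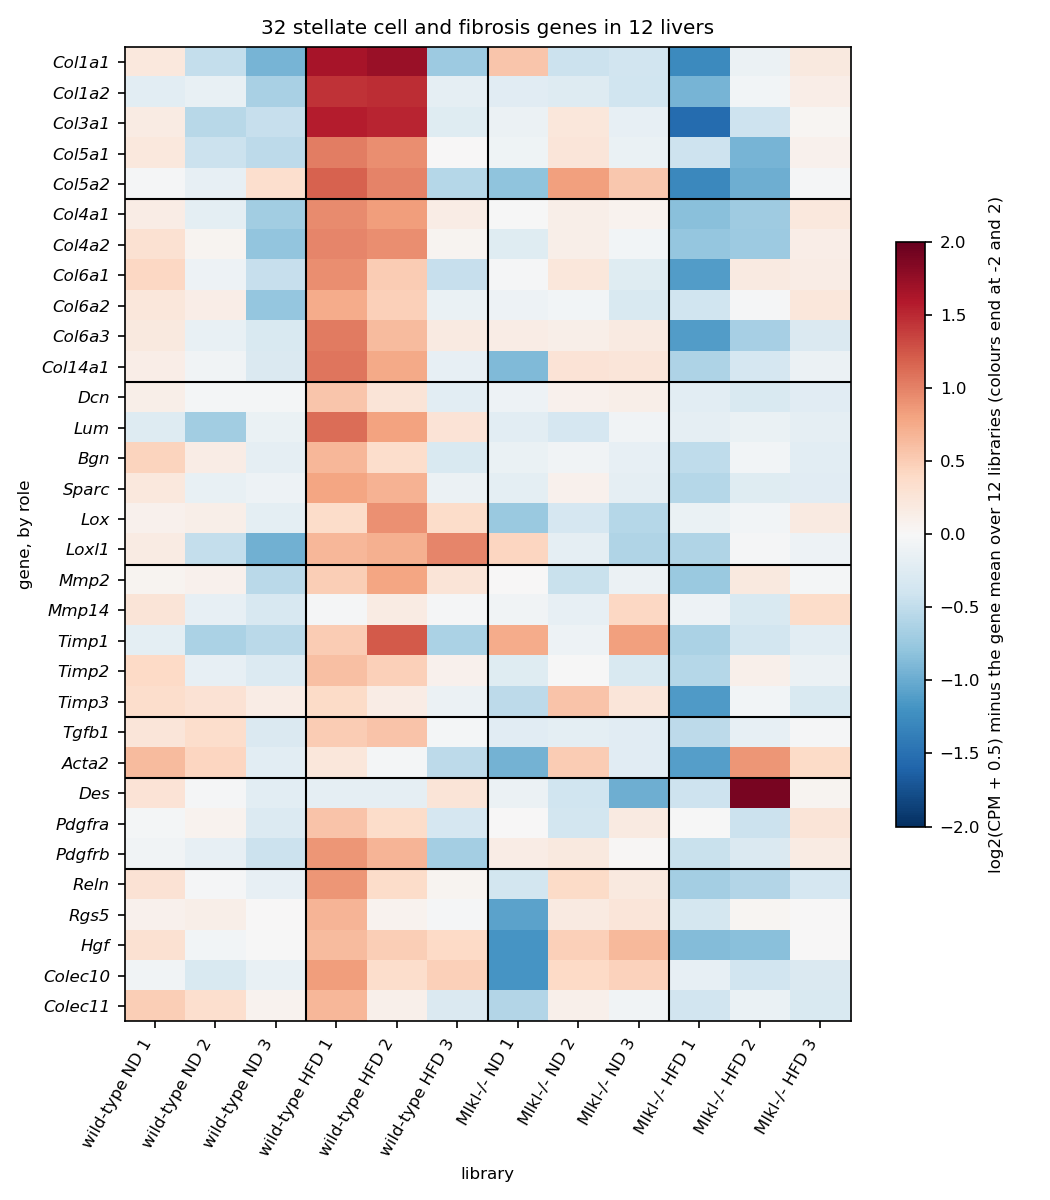
Heat map of log2(CPM + 0.5) minus the gene's mean over 12 libraries, with 32 genes in rows, grouped by role, and the 12 libraries in columns, grouped by genotype and diet. The red block is in wild-type HFD replicates 1 and 2, which hold the highest value of 20 and 6 genes, and Mlkl-/- HFD replicate 1 holds the lowest value of 15.

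By edgeR's quasi-likelihood test with Benjamini-Hochberg adjustment over all 18098 genes, 1 of the 32 genes, the proteoglycan gene Lum, passed an adjusted p of 0.05 for the diet difference in wild-type mice, where 4.23% of all genes were called and 2.02% were called higher. At an unadjusted p under 0.05, 14 of 32 were higher and 0 lower, beside 9.61% and 10.8% of all genes. The 3 HFD and the 3 ND values did not overlap for 7 genes, all higher on HFD, and 14% of all genes were higher without overlap. In Mlkl-/- mice 0 of 32 genes were called, beside 0.359% of all genes. There 2 were higher and 3 lower at an unadjusted p under 0.05, beside 6.95% and 6.64% of all genes. DESeq2 and limma-voom also called 0 of 32, beside 2.84% and 0.265% of all genes. Without overlap, 1 was higher (Lox) and 4 were lower (Col6a3, Dcn, Sparc and Timp1), beside 8.02% and 7.51% of all genes. The wild-type count was 0 without wild-type HFD replicate 1, without replicate 2 and without wild-type ND replicate 2, when 1.94%, 0.342% and 0.538% of all genes were called. Without wild-type HFD replicate 3 it was 8, beside 2.87% of all genes. These 8 were Col1a1, Col1a2, Col3a1, Col5a1, Lum, Sparc, Pdgfrb and Timp1, all higher on HFD.

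Fibrillar collagens form the scar itself. Col1a1 and Col1a2 encode the chains of type I collagen, Col3a1 that of type III, and Col5a1 and Col5a2 encode type V chains, which set fibril thickness. All 5 had a positive fold change on HFD in wild-type mice, with a median of 1.43 (log2), and 4 of 5 had an unadjusted p under 0.05, but 0 of 5 passed the adjusted threshold and 0 of 5 were free of overlap between diets. Col3a1 stood at 31.3, 18.8 and 20.3 CPM in wild-type ND replicates 1 to 3 and at 84.6, 81.3 and 23.5 CPM in wild-type HFD replicates 1 to 3. It stood at 25.8, 32.8 and 24.9 CPM in Mlkl-/- ND livers and at 9.30, 20.9 and 28.7 CPM in Mlkl-/- HFD livers. Wild-type HFD replicates 1 and 2 were thus above all other livers, and replicate 3 was within the ND range. The wild-type diet difference was 1.43 ± 0.51 (log2 fold change ± SE, adjusted p = 0.152).

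Col1a2 stood at 8.37, 8.73 and 6.09 CPM in wild-type ND livers (mean 7.73 ± 1.44, SD, n = 3) and at 27.5, 28.2 and 8.62 CPM in wild-type HFD livers (21.4 ± 11.1). In Mlkl-/- livers it was 8.25, 8.06 and 7.34 CPM on ND and 4.91, 9.37 and 10.8 CPM on HFD. The first pair of wild-type HFD livers again stood apart, and the third lay among the ND values. Its wild-type diet difference was 1.48 ± 0.39 with adjusted p = 0.0580, the smallest adjusted p among the collagens. That adjusted p fell to 0.00413 without wild-type HFD replicate 3 and rose to as much as 0.216 with another library left out. Col1a1, shown because it is the partner chain and chosen after its values were seen, stood at 8.07, 4.81 and 3.40 CPM in wild-type ND livers and at 22.7, 24.0 and 4.00 CPM in wild-type HFD livers. In Mlkl-/- livers it was 10.4, 5.00 and 5.17 CPM on ND and 2.57, 6.30 and 7.95 CPM on HFD. The type V chains followed the same 2 livers, with Col5a1 at 14.8 and 13.9 CPM and Col5a2 at 8.64 and 7.49 CPM there, against 7.03 and 2.22 CPM in wild-type HFD replicate 3.

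**Figure D2:**
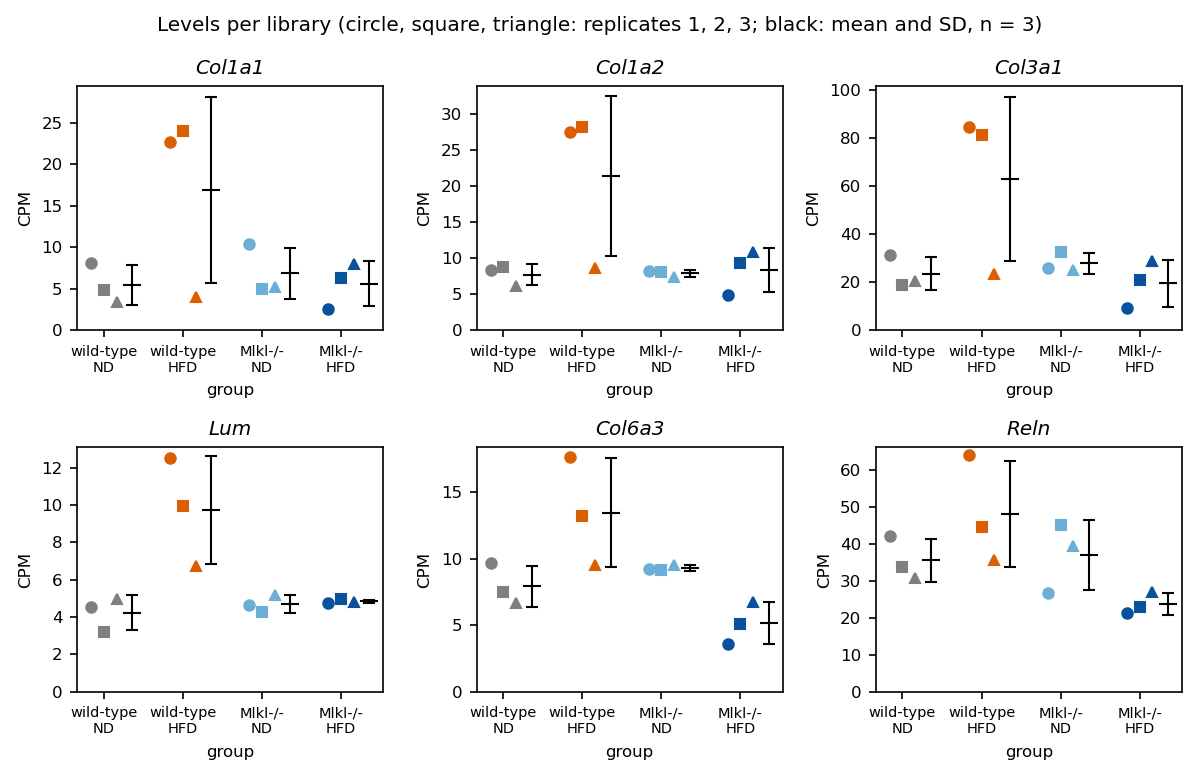
CPM per library for Col1a1, Col1a2, Col3a1, Lum, Col6a3 and Reln in the 4 groups, with replicates 1, 2 and 3 as circle, square and triangle and the mean and SD (n = 3) in black. Collagen levels of wild-type HFD replicates 1 and 2 lie above all other livers (Col3a1 84.6 and 81.3 CPM), whereas replicate 3 lies with the ND livers (23.5 CPM).

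The 250 bases before the annotated start are shown for a pair of fibrillar collagens and a pair of quiescent markers, so that the genes contrasted below can be compared in sequence. They are from RefSeq (GRCm38.p6, the patch release of mm10), read 5' to 3' on the gene's strand, and 22 of the 32 genes had an entry. Capitals mark matches, on either strand, to 4 motifs. One was the CCAAT box, searched by those letters. Another was the TATA box, searched as TATAAA. The third was the AP-1 site, searched as TGANTCA. The last was a sequence that SMAD proteins bind, searched as CAGACA. None of these overlapped another in the windows shown. The windows are chr1:45311288-45311537 (plus strand) for Col3a1, chr2:27886175-27886424 (plus strand) for Col5a1, chr5:22344706-22344955 (minus strand) for Reln and chr1:169655251-169655500 (plus strand) for Rgs5.
Col3a1: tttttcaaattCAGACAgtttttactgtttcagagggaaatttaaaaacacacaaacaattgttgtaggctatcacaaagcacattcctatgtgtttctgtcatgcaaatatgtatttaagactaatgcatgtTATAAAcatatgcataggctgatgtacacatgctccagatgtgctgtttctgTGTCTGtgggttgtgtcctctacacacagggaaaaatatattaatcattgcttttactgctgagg
Col5a1: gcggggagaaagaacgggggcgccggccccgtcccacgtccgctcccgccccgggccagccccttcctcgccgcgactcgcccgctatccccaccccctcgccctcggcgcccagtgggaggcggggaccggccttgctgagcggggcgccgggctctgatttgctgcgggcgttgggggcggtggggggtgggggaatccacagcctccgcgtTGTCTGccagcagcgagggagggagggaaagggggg
Reln: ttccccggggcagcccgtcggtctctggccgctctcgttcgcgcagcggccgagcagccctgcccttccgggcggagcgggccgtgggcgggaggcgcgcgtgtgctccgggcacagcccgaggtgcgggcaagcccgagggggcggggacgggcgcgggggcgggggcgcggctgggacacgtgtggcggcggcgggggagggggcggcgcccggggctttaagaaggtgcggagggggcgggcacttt
Rgs5: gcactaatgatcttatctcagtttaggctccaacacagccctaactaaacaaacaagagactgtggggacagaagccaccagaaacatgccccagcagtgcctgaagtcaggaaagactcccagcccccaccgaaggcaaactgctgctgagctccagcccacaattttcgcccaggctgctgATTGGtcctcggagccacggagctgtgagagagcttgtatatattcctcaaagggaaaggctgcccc
CAGACA was found in 6 of the 22 windows (27.3%), beside 17.0% of the 32536 RefSeq windows of this length. The 6 genes were Col1a2, Col3a1, Col5a1, Sparc, Acta2 and the quiescent marker Colec11. The Colec11 window, which is not shown, held 2 matches and overlapped an annotated exon, as the windows shown do not. The pairs shown thus do not stand for all matrix genes and quiescent markers. CCAAT was found in 7 of 22 (31.8%, beside 33.8% of all windows). The TATA box was found in 1 of 22 (4.55%, beside 12.3%), Col3a1, and the AP-1 site in 1 of 22 (4.55%, beside 6.73%), Col6a1. A match is a run of letters and says nothing of binding in these livers.

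The 6 other collagens were Col4a1 and Col4a2, the chains of the basement membrane network, the microfibril chains Col6a1, Col6a2 and Col6a3, and Col14a1, a fibril-associated collagen. All 6 had a positive wild-type diet fold change with a median of 0.74, 3 of 6 at an unadjusted p under 0.05, and 5 of 6 had a negative one in Mlkl-/- mice. Col6a3 stood at 9.65, 7.46 and 6.64 CPM in wild-type ND livers and 17.6, 13.2 and 9.49 CPM in wild-type HFD livers. In Mlkl-/- livers it was 9.23, 9.12 and 9.51 CPM on ND and 3.58, 5.09 and 6.75 CPM on HFD. The Mlkl-/- HFD values lay below all Mlkl-/- ND and all wild-type HFD values. Its diet difference was 0.77 ± 0.25 in wild-type mice (adjusted p = 0.0918) and -0.85 ± 0.25 in Mlkl-/- mice (adjusted p = 0.152).

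Col14a1 stood at 47.9, 41.9 and 35.6 CPM in wild-type ND livers, 92.1, 74.5 and 39.1 CPM in wild-type HFD livers, 23.4, 53.3 and 51.8 CPM in Mlkl-/- ND livers and 28.4, 34.6 and 40.3 CPM in Mlkl-/- HFD livers. Mlkl-/- ND replicate 1 was the lowest of the 12, far below the other 2 of its group. Col4a1, chosen after its values were seen, was the only collagen whose wild-type values did not overlap between diets, at 38.3, 30.1 and 21.0 CPM on ND and 66.8, 61.8 and 38.4 CPM on HFD (0.90 ± 0.30, adjusted p = 0.109). Col4a1 and Col4a2 overlap head to head on opposite strands of chromosome 8 (11198423 to 11312826 and 11312805 to 11449287, mm10).

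Proteoglycans, collagen-binding and crosslinking proteins organise the fibrils. Lum encodes lumican, a small proteoglycan that binds collagen fibrils, and lies on chromosome 10 (97565128 to 97572703, plus strand, mm10). It stood at 4.53, 3.19 and 4.97 CPM in wild-type ND livers (4.23 ± 0.928, SD, n = 3) and at 12.5, 9.94 and 6.74 CPM in wild-type HFD livers (9.72 ± 2.88). In Mlkl-/- livers it was 4.66, 4.25 and 5.17 CPM on ND (4.69 ± 0.461) and 4.77, 4.95 and 4.78 CPM on HFD (4.83 ± 0.103). All 3 wild-type HFD livers exceeded the other 9. Lum rose 2.29-fold on HFD in wild-type mice (log2 1.20 ± 0.23, adjusted p = 0.0153), and its difference in Mlkl-/- mice was 0.04 ± 0.24 (adjusted p = 0.957). The difference between the 2 diet effects was -1.16 ± 0.33 with adjusted p = 0.384, so it was not shown to differ between genotypes after adjustment. Averaged over genotypes, Lum was again the 1 gene of 32 called (0.62 ± 0.17, adjusted p = 0.0375), where 7.19% of all genes were called. That averaged call held in 5 of the 12 fits with a library left out. It ended without wild-type ND replicate 1 or 2, wild-type HFD replicate 1 or 2, Mlkl-/- ND replicate 2, or Mlkl-/- HFD replicate 1 or 3 (adjusted p up to 0.0998). It also ended by limma-voom (adjusted p = 0.0548) and when the model held the 8-locus level (adjusted p = 0.0937), where Rgs5 was the 1 gene of the 32 called, beside 0.674% of all genes. The wild-type call ended without wild-type HFD replicate 1 (adjusted p = 0.0586), without replicate 2 (0.0739) and without wild-type ND replicate 2 (0.0748). Within the libraries numbered 23 or 25 the wild-type difference was 1.69 (log2), with replicate 1 the only HFD liver. Within those numbered 27 or 29 it was 0.71, with replicate 3 the only ND liver.

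Dcn, which encodes the related proteoglycan decorin, lies on the same chromosome (97479609 to 97518143). Its values were 125, 112 and 112 CPM in wild-type ND livers, 169, 137 and 99.1 CPM in wild-type HFD livers, 107, 122 and 126 CPM in Mlkl-/- ND livers and 99.0, 93.3 and 98.6 CPM in Mlkl-/- HFD livers. The Mlkl-/- HFD values were the lowest of the 4 groups, and the wild-type diet difference was 0.21 ± 0.16 (adjusted p = 0.509). Loxl1 encodes a lysyl oxidase that crosslinks elastin and collagen. It stood at 1.88, 1.03 and 0.589 CPM in wild-type ND livers and 2.88, 3.00 and 3.71 CPM in wild-type HFD livers, where the third liver was the highest and not the lowest. In Mlkl-/- livers Loxl1 was 2.36, 1.37 and 0.908 CPM on ND and 0.906, 1.59 and 1.48 CPM on HFD. The wild-type difference of 1.46 ± 0.42 had adjusted p = 0.0635. Lox, the founding lysyl oxidase, was counted too rarely for firm values, with 11, 10 and 9 reads in wild-type ND libraries, 17, 40 and 14 in wild-type HFD, 1, 5 and 3 in Mlkl-/- ND and 7, 8 and 13 in Mlkl-/- HFD. It was the only gene of the 32 whose values were higher on HFD without overlap in both genotypes (1.06 ± 0.50, adjusted p = 0.251, and 1.64 ± 0.61, adjusted p = 0.255). Bgn, for biglycan, ranged from 36.4 to 81.9 CPM and Sparc, a collagen-binding glycoprotein, from 23.7 to 61.8 CPM. Both had their highest value in wild-type HFD replicate 1 and their lowest in Mlkl-/- HFD replicate 1.

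Among matrix proteases and inhibitors, Mmp2 and Mmp14 encode a gelatinase and the membrane protease that activates it, and Timp1, Timp2 and Timp3 encode inhibitors of such proteases. Timp3 stood at 31.7, 30.2 and 27.5 CPM in wild-type ND livers, 32.3, 27.3 and 22.8 CPM in wild-type HFD livers, 16.9, 36.7 and 29.3 CPM in Mlkl-/- ND livers and 11.0, 23.6 and 19.8 CPM in Mlkl-/- HFD livers. Within each genotype the diet groups overlapped, and the Mlkl-/- HFD values lay below those of wild-type ND livers. Timp1 is an injury-induced inhibitor and was rare, with 4, 0 and 1 reads in wild-type ND libraries, 15, 43 and 0 in wild-type HFD, 16, 5 and 22 in Mlkl-/- ND and 0, 2 and 4 in Mlkl-/- HFD. Its fitted diet differences had opposite signs in the 2 genotypes, 3.19 ± 1.18 in wild-type (adjusted p = 0.145) and -2.73 ± 1.17 in Mlkl-/- mice (adjusted p = 0.320), and their difference had adjusted p = 0.384. Timp1 and Timp3 lie within the synapsin genes Syn1 and Syn3 on the opposite strand, and no source used here gives the strand setting of the counting. Mmp2 ranged from 0.667 to 2.88 CPM and was higher without overlap on HFD in wild-type livers (0.83 ± 0.38, adjusted p = 0.229). Mmp14, at 19.4 to 32.6 CPM, showed a wild-type diet difference of 0.10 ± 0.21 (adjusted p = 0.838), and Timp2 one of 0.41 ± 0.23 (adjusted p = 0.330).

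Tgfb1, the activating ligand, stood at 6.19, 6.72 and 4.12 CPM in wild-type ND livers, 7.52, 7.88 and 5.01 CPM in wild-type HFD livers, 4.32, 4.43 and 4.34 CPM in Mlkl-/- ND livers and 3.43, 4.52 and 5.07 CPM in Mlkl-/- HFD livers. The diet groups overlapped in both genotypes, and the wild-type diet difference was 0.27 ± 0.24 (adjusted p = 0.577). Acta2, the smooth muscle actin that marks contractile myofibroblasts, did not share the collagen pattern. It ranged from 1.10 to 5.86 CPM, its wild-type diet difference was -0.45 ± 0.53 (adjusted p = 0.696), and its highest liver was Mlkl-/- HFD replicate 2. The same liver had 17.1 CPM of Des, the muscle-type filament desmin, against 1.89 to 5.21 CPM in the other 11 (Des was chosen after its values were seen). Of the 7 smooth muscle markers (such as Myh11), 5 passed the filter. Those 5 had their highest mean deviation from the 12-library mean there, 0.94 (log2), beside -1.32 to 0.50 in the others. The summed level of all 7 was not highest there. It was 20.3 CPM, below Mlkl-/- ND replicate 2 (24.0 CPM) and wild-type ND replicates 1 and 2 (23.2 and 20.6 CPM). In this liver 0 of the 7 were at 0, as in most of the other livers, among them all wild-type ND livers. Up to 2 of the 7 were at 0 in a library elsewhere. The part of these markers in the Acta2 and Des values was not tested. Pdgfrb, a receptor for platelet-derived growth factor, stood at 5.89, 5.45 and 4.45 CPM in wild-type ND livers, 11.8, 10.2 and 3.66 CPM in wild-type HFD livers, 6.92, 7.17 and 6.31 CPM in Mlkl-/- ND livers and 4.43, 5.00 and 7.00 CPM in Mlkl-/- HFD livers. Like the collagens it was highest in the first pair of wild-type HFD livers and low in the third. Its relative Pdgfra ranged from 3.08 to 6.68 CPM, with a wild-type diet difference of 0.37 ± 0.28 (adjusted p = 0.505).

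Of the 5 quiescent markers, Reln encodes the secreted glycoprotein reelin, Rgs5 a regulator of G protein signalling that pericytes also express, Hgf the hepatocyte growth factor, and Colec10 and Colec11 soluble lectins. In wild-type mice 4 of 5 had a positive diet fold change, with a median of 0.43, and in Mlkl-/- mice 4 of 5 had a negative one, with a median of -0.35. Reln stood at 42.2, 33.9 and 30.9 CPM in wild-type ND livers, 64.1, 44.7 and 35.8 CPM in wild-type HFD livers, 26.6, 45.2 and 39.4 CPM in Mlkl-/- ND livers and 21.4, 22.9 and 27.1 CPM in Mlkl-/- HFD livers. The Mlkl-/- HFD values lay below all wild-type values. Rgs5 stood at 49.7, 50.7 and 47.2 CPM in wild-type ND livers, 74.8, 48.8 and 46.1 CPM in wild-type HFD livers, 21.9, 53.1 and 55.5 CPM in Mlkl-/- ND livers and 36.7, 47.9 and 47.2 CPM in Mlkl-/- HFD livers. Wild-type HFD replicate 1 was the highest liver and Mlkl-/- ND replicate 1 the lowest, and the 4 groups overlapped. Colec11 stood at 34.2, 30.6 and 25.3 CPM in wild-type ND livers, 38.6, 25.9 and 19.8 CPM in wild-type HFD livers, 16.0, 26.1 and 22.9 CPM in Mlkl-/- ND livers and 18.4, 22.0 and 19.5 CPM in Mlkl-/- HFD livers, with a genotype difference of -0.47 ± 0.23 on ND (adjusted p = 0.905).

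Colec10 and Hgf, chosen after their values were seen, show how far 1 library decides this group. In Mlkl-/- ND livers Colec10 stood at 9.57, 29.8 and 31.0 CPM and Hgf at 3.88, 13.3 and 15.1 CPM, with the first liver far below its group in both. On HFD, the Mlkl-/- livers had 19.9, 17.2 and 18.3 CPM of Colec10 and 4.96, 5.09 and 9.55 CPM of Hgf. Without Mlkl-/- ND replicate 1, which also holds the highest sum at the 8 loci, 2 genes of the 32 were called lower on HFD in Mlkl-/- mice, Colec10 (-0.69, adjusted p = 0.0319) and Hgf (-1.09, adjusted p = 0.0319), beside 3.92% of all genes called in either direction. With it the values were -0.35 ± 0.33 (adjusted p = 0.672) and -0.72 ± 0.40 (adjusted p = 0.460). Of the 32 genes, 6 had their lowest value of all livers in Mlkl-/- ND replicate 1, where 13.8% of all tested genes had theirs.

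The 22 collagen and matrix genes were then set against the 5 quiescent markers in each liver, by the mean over genes of log2 CPM minus the gene's mean over the 12 libraries. In wild-type HFD livers the matrix genes stood at 0.94, 0.90 and -0.09 and the quiescent markers at 0.75, 0.28 and 0.13. Both sets were above their means in replicate 1, and in replicate 2 the matrix set was the further above. In wild-type ND livers the matrix genes stood at 0.18, -0.22 and -0.46 and the quiescent markers at 0.23, 0.01 and -0.04. Mlkl-/- HFD livers had -0.82, -0.29 and 0.01 for the matrix genes and -0.50, -0.39 and -0.18 for the quiescent markers. In Mlkl-/- ND livers the matrix genes were near their mean, at -0.13, 0.02 and -0.04, and the quiescent markers at -0.91, 0.32 and 0.30. Matrix minus quiescent averaged -0.23 ± 0.19 (SD, n = 3) in wild-type ND, 0.20 ± 0.42 in wild-type HFD, 0.05 ± 0.63 in Mlkl-/- ND and -0.01 ± 0.27 in Mlkl-/- HFD livers. The means of the Mlkl-/- groups differed by less than either SD, and those of the wild-type groups by about the SD of the HFD livers. As the genes were chosen with results of these data known, these scores are given without a test.

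**Figure D3:**
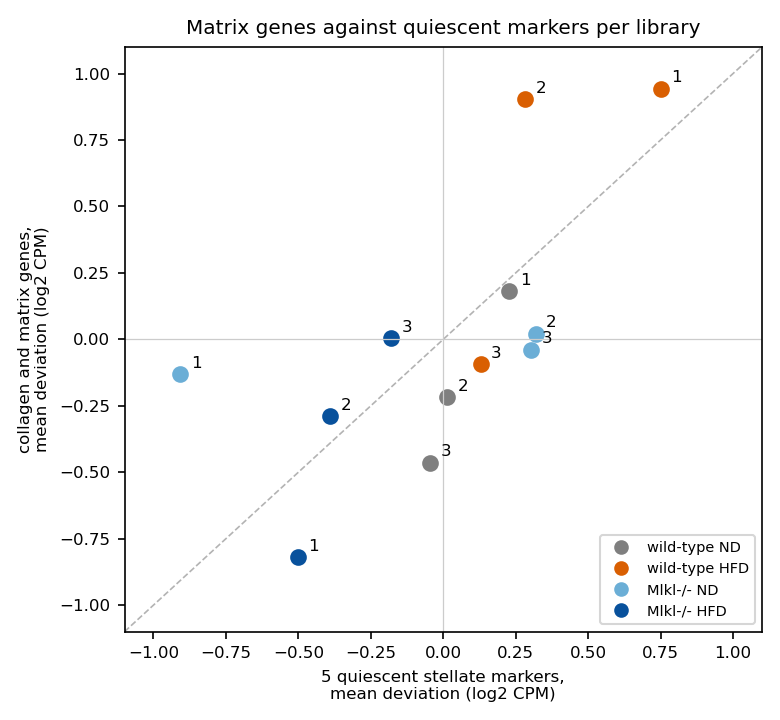
Mean deviation (log2 CPM) of the 22 collagen and matrix genes on the vertical axis against that of the 5 quiescent stellate markers on the horizontal axis, 1 point a library, numbered by replicate, with the dashed line where both are equal. Wild-type HFD replicates 1 and 2 lie at the top (0.94 and 0.90), Mlkl-/- HFD replicate 1 at the bottom (-0.82), and Mlkl-/- ND replicate 1 at the far left (-0.91).

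Between genotypes on HFD, the genes lay lower in Mlkl-/- livers. The fold change was below 0 for 30 of 32 genes, with a median of -0.87 beside 0.01 over all genes, of which 51.7% were above 0, and for all 11 collagens, with a median of -1.15. After adjustment 0 of 32 were called by edgeR, beside 0.0276% of all genes. At an unadjusted p under 0.05, 22 were lower and 0 higher, beside 8.29% of all genes lower. Values did not overlap for 10 genes, all lower in Mlkl-/- livers (Col6a3, Colec10, Dcn, Hgf, Lox, Loxl1, Lum, Mmp2, Reln and Sparc), beside 10.8% of all genes. DESeq2 called 8 of 32, all lower, beside 2.2% of all genes, and limma-voom called 0, beside 0.0221%. Col6a3 came nearest to the threshold, at -1.38 ± 0.25 (adjusted p = 0.0613), followed by Reln at -1.02 ± 0.22 (adjusted p = 0.116) and Lum at -1.01 ± 0.23 (adjusted p = 0.122). Without wild-type HFD replicate 3, 8 genes were called lower (Col1a2, Col3a1, Col5a1, Col6a3, Dcn, Lum, Reln and Sparc), beside 1.02% of all genes called. Within the libraries numbered 23 or 25 the median difference was -1.21, with replicate 1 the only wild-type HFD liver. Within those numbered 27 or 29 it was -0.35, with replicate 3 the only Mlkl-/- HFD liver. These 2 values thus rest on a single liver on one side. Among livers at the higher 8-locus level the median difference was -0.68.

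On ND the 32 genes were separated by genotype about as rarely as genes in general. The median difference was 0.03, beside 0.0003 over all genes. By edgeR, DESeq2 and limma-voom 0 of 32 genes were called, beside 0.00553%, 0.271% and 0% of all genes. At an unadjusted p under 0.05 by edgeR, 1 was higher (Timp1) and 1 lower (Lox), beside 2.81% and 2.7% of all genes. Values did not overlap for 3 genes, with Timp1 and Pdgfrb higher and Lox lower in Mlkl-/- livers, beside 4.96% of all genes higher and 5.54% lower.

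Whether the diet effect itself differed between genotypes was tested as the interaction. The difference of the diet effects was below 0 for 29 of 32 genes, with a median of -0.90 beside 0.01 over all genes, of which 50.8% were above 0, and 15 were lower at an unadjusted p under 0.05 beside 5.19% of all genes. After adjustment edgeR called 0 of the 32 and 0% of all 18098 genes, and DESeq2 called 1 of 32, Col6a3 (adjusted p = 0.0184), beside 0.32% of all genes. By edgeR Col6a3 had -1.62 ± 0.35 (adjusted p = 0.338). The diet and genotype comparisons on HFD share the 3 wild-type HFD livers, so their values for a gene are not independent.

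**Figure D4:**
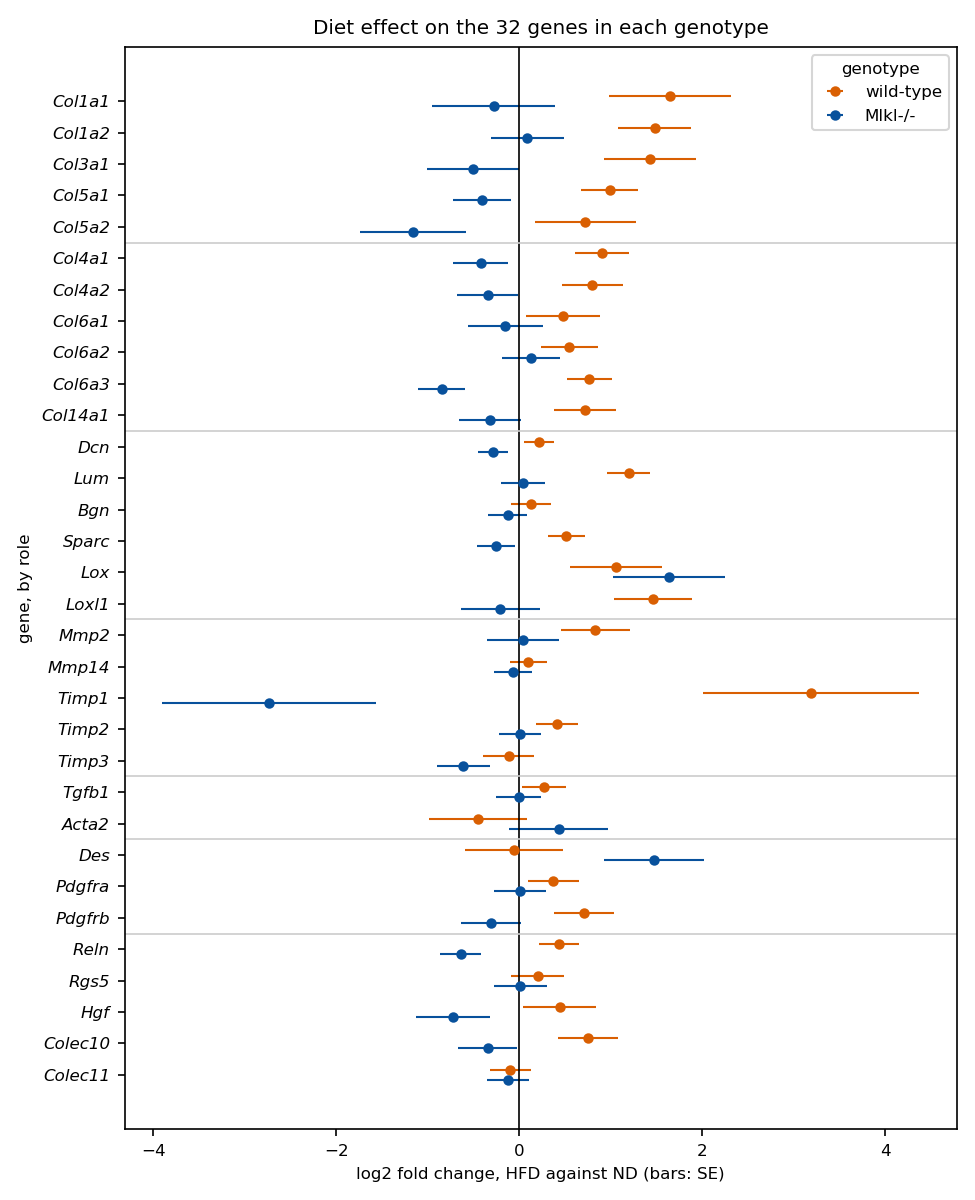
Log2 fold change for HFD against ND, with SE, for each of the 32 genes by role, in wild-type mice (orange) and Mlkl-/- mice (blue). All 11 collagens lie to the right of 0 in wild-type mice and 9 of 11 to the left in Mlkl-/- mice, and Lum (1.20 against 0.04) is the 1 gene whose wild-type value was called.

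Further genes of the pathway were read from 4 lists. Of 26 genes of transforming growth factor beta and platelet-derived growth factor signalling, 0 were called in wild-type mice, beside 4.23% of all genes. At an unadjusted p under 0.05, 5 were higher, beside 9.61% of all genes, and the median diet fold change was 0.30. The wild-type diet difference was 0.24 ± 0.19 for the coreceptor Eng (adjusted p = 0.541) and -0.03 ± 0.35 for the latent ligand-binding Ltbp4 (adjusted p = 0.977). Ccn1, a matricellular target, rose on HFD averaged over genotypes (1.05 ± 0.25, adjusted p = 0.0237), the 1 call among the 26 there, where 7.19% of all genes were called. Of 28 other matrix genes tested, 3 were called in wild-type mice, all higher, beside 2.02% of all genes called higher, and the list's median was 0.63. They were the basement membrane genes Nid1 (nidogen, 1.24 ± 0.32, adjusted p = 0.0483) and Lamc1 (a laminin chain, 0.64 ± 0.17, adjusted p = 0.0474) and the collagen-binding Aebp1 (1.36 ± 0.36, adjusted p = 0.0483). Nid1 stood at 13.9, 10.4 and 10.1 CPM in wild-type ND livers, 27.6, 35.7 and 17.5 CPM in wild-type HFD livers, 13.8, 14.7 and 11.9 CPM in Mlkl-/- ND livers and 5.96, 6.73 and 14.5 CPM in Mlkl-/- HFD livers, so all 3 wild-type HFD livers were above the other 9.

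Of 18 collagen processing genes tested, 0 were called in wild-type mice, beside 4.23% of all genes. At an unadjusted p under 0.05, 5 were higher, beside 9.61% of all genes, with a list median of 0.29. P4hb, a prolyl hydroxylase subunit that all secretory cells use, had a wild-type diet difference of 0.37 ± 0.16 (adjusted p = 0.193), and Bmp1, the procollagen C-proteinase, one of -0.30 ± 0.18 (adjusted p = 0.375). Of 22 other stellate cell genes, 0 were called and 3 were higher at an unadjusted p under 0.05, beside the same 4.23% and 9.61%, with a median of 0.19. The chemokine Cxcl12 had a wild-type diet difference of -0.37 ± 0.21 (adjusted p = 0.356) and the receptor Vipr1 one of 0.03 ± 0.17 (adjusted p = 0.948). In Mlkl-/- mice 0 genes of the 4 lists were called for diet, beside 0.359% of all genes. At an unadjusted p under 0.05, 2, 2, 0 and 0 were higher and 0, 4, 1 and 1 lower, in the order given. Of all genes, 6.95% were higher and 6.64% lower there.

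Among markers of other liver cells, those of sinusoidal endothelium and Kupffer cells stood higher in wild-type HFD than in Mlkl-/- HFD livers. The 12 markers of sinusoidal endothelium, in mean deviation (log2 CPM), stood at 0.80, 0.39 and 0.10 in the wild-type HFD livers and at -0.80, -0.63 and -0.36 in the Mlkl-/- HFD livers. Their summed level was 352 to 522 CPM in wild-type HFD, 176 to 234 CPM in Mlkl-/- HFD, 266 to 384 CPM in wild-type ND and 243 to 351 CPM in Mlkl-/- ND livers. On HFD all 12 were lower in Mlkl-/- livers, 11 without overlap beside 10.8% of all genes, and 2 were called beside 0.0276% of all genes, Dnase1l3 (-1.17 ± 0.15, adjusted p = 0.0166) and Fcgr2b (-1.21 ± 0.18, adjusted p = 0.0353). The 11 Kupffer cell markers stood at 0.64, 0.63 and 0.19 in wild-type HFD livers and -0.57, -0.88 and 0.13 in Mlkl-/- HFD livers, with sums of 316 to 447 and 152 to 294 CPM, beside 206 to 296 CPM in wild-type ND and 177 to 343 CPM in Mlkl-/- ND livers.

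The 11 markers of recruited macrophages were highest in wild-type HFD replicates 1 and 2, where the matrix genes were also highest. Wild-type HFD livers stood at 1.54, 1.78 and 0.09, with sums of 78.1, 88.6 and 28.7 CPM. Over the other 3 groups no sum exceeded 40.2 CPM, and 6 of the 11 genes rose on HFD in wild-type mice, beside 2.02% of all genes, among them Gpnmb (4.14 ± 0.78, adjusted p = 0.0153). The 10 hepatocyte markers stood lower in the wild-type HFD livers, at -0.34, -0.94 and -0.56, beside 0.22 to 0.37 in wild-type ND livers, 0.16 to 0.49 in Mlkl-/- ND livers and -0.29 to 0.30 in Mlkl-/- HFD livers. Portal fibroblasts, which also make collagen, and mesothelium were followed by 11 markers (among them Thy1 and Cd34), whose sum was 12.6 to 19.2 CPM in wild-type HFD, 7.96 to 16.1 CPM in Mlkl-/- HFD, 9.88 to 13.9 CPM in wild-type ND and 9.13 to 10.9 CPM in Mlkl-/- ND livers. Their mean deviation was 0.26, 0.45 and 0.03 in wild-type HFD and -0.76, 0.60 and 0.17 in Mlkl-/- HFD livers. By that measure Mlkl-/- HFD replicate 2 was the highest liver. The 8 adipocyte markers summed to 176 to 276 CPM in wild-type HFD, 56.8 to 114 CPM in Mlkl-/- HFD, 53.0 to 60.8 CPM in wild-type ND and 22.7 to 49.0 CPM in Mlkl-/- ND livers, and the 8 cholangiocyte markers to 25.2 to 125, 23.2 to 33.3, 33.0 to 36.1 and 39.9 to 104 CPM in the same order. In mean deviation the adipocyte markers stood at -0.37, 2.01 and 2.05 in wild-type HFD and -0.61, 0.55 and 0.74 in Mlkl-/- HFD livers. By that measure the HFD groups overlapped. None of the endothelial, Kupffer, macrophage and hepatocyte markers was at 0 in any library. In every library, 1 to 3 of the 11 portal fibroblast and mesothelium markers and 1 to 3 of the 8 cholangiocyte markers were at 0. Up to 2 of the 8 adipocyte markers were at 0 in a library. The part of these cell types in the levels of the 32 genes was not tested.

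**Figure D5:**
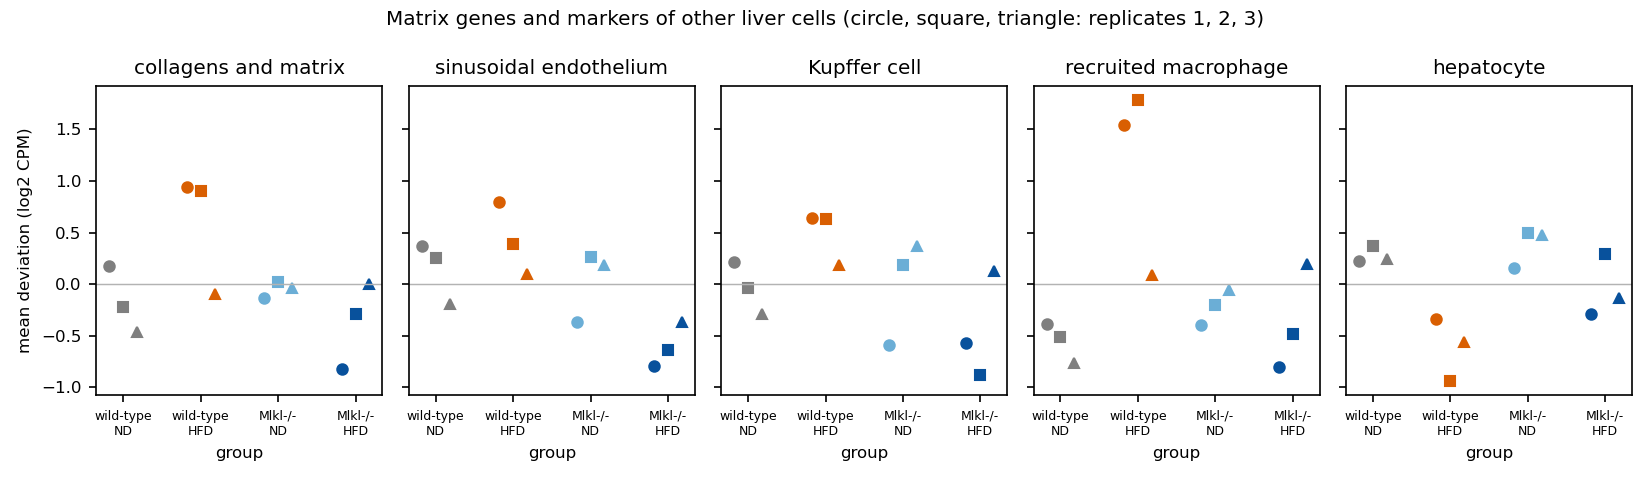
Mean deviation (log2 CPM) of the collagen and matrix genes and of 4 marker lists in the 4 groups, with replicates 1, 2 and 3 as circle, square and triangle. Wild-type HFD replicates 1 and 2 are high for matrix genes (0.94 and 0.90) and for recruited macrophage markers (1.54 and 1.78), and the Mlkl-/- HFD livers are low for endothelial markers (-0.80 to -0.36).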

How the data were processed

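Per the labels' protocols, Trizol-extracted, column-purified liver RNA went into QuantSeq 3' libraries for a NextSeq sequencer, so counts reflect transcript 3' ends. Per the submitters' processing notes the pipeline names cutadapt 1.9, HISAT2, featureCounts and limma, with build mm10. No source used here gives the annotation, strand setting or treatment of multi-mapping reads. The table that the authors deposited holds raw counts per Ensembl gene identifier. Symbols and positions were added from GENCODE M21. The members and lists were chosen with earlier results of these data known.

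Tests used edgeR 4.0.16 in R 4.3.3: filterByExpr (minimum 10 counts, 15 in total), TMM factors (0.922 to 1.16), 1 mean per group over 12 libraries with 8 residual degrees of freedom, robust glmQLFit and glmQLFTest for 6 contrasts, adjusted by Benjamini and Hochberg over 18098 genes. The threshold for a call was an adjusted p under 0.05. CPM use TMM library sizes, and log2 CPM a prior count of 2. Counting errors cover sampling only. Replicates of a group were further apart than sampling noise (chi-square per degree of freedom 17.9 to 125), and p-values measure the spread between these 12 animals, which the titles number separately. The fitting code was run on simulated counts with known changes, the same spread between replicates for all genes and no batch. That run checks the code and does not show how the fits behave on these livers.

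Per-library values are given for genes called in any contrast, the 3 with the smallest p in each of the 4 contrasts between a pair of groups, and the gene of each role with the highest mean CPM, except where another choice is stated. From each pathway list up to 4 called genes, or the 2 with the highest mean CPM, are named. Alternatives were DESeq2 1.42.0, limma-voom (limma 3.58.1), other scalings and filters, non-robust dispersions, the title number or the 8-locus level as a term, the compared groups alone, and each library left out.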

Additional observations from a re-analysis of the deposited data

How the results depend on the processing

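The share of all genes called is given in parentheses after each count, and its range over the fits after a range of counts. The number of the 32 genes called on HFD in wild-type mice, 1 as reported (4.23%), was 4 with library-size scaling (6.09%), 3 without the filter (3%), 2 with a filter of 5 CPM in 3 libraries (6.88%), 6 by DESeq2 (8.09%), 2 by limma-voom (4.46%), 2 without robust dispersions (4.17%), 2 with the title number as a term (3.8%), 4 with the 8-locus level as a term (0.873%) and 3 with the compared groups only (8.21%). It ran from 0 to 8 as each library was left out (0.342% to 6.63%). For the averaged diet effect, also 1 (7.19%), it was 2 with library-size scaling (10.9%), 3 by DESeq2 (10.8%), 0 by limma-voom (6.95%) and 2 without robust dispersions (7.11%). With a library left out it was 0 to 2 (3.34% to 10.9%). The count for Mlkl-/- against wild-type on HFD, reported as 0 (0.0276%), was 1 with library-size scaling (0.199%), 4 without the filter (0.404%) and 8 by DESeq2 (2.2%). With a library left out it was 0 to 8 (0% to 1.02%). The interaction count of 0 (0%) became 1 by DESeq2 (0.32%) and was 0 to 1 with a library left out (0% to 0.0215%). The Mlkl-/- diet count of 0 (0.359%) was 0 to 2 with a library left out (0.0702% to 3.92%). The cause of these differences was not tested. Library-size scaling moved the median of all genes by 0.19 (log2) for diet in wild-type mice, 0.14 for the averaged diet effect, -0.17 for genotype on HFD and -0.11 for the interaction. All 11 collagens stayed above 0 for diet in wild-type mice and below 0 for genotype on HFD under all 22 alternatives. The median of the 32 genes ran from 0.39 to 0.88 in the former and from -1.05 to -0.70 in the latter. In Mlkl-/- mice the median diet effect ran from -0.31 to 0.03, and it was above 0 only with the 8-locus level as a term. No paired analysis was possible because the labels give no replicate numbers, and the numbers used here follow accession order. Genes with few reads, such as Lox and Timp1, are limited by depth.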
